A study of Homo sapiens with 22 samples.

Results

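Wnt, BMP and TGF-beta signalling genes were followed across 11 established human glioblastoma cell lines grown without treatment, with 2 RNA-seq libraries per line and 22 in all. They were chosen by symbol only: WNT, FZD, SFRP, DKK, RSPO, BMP, BMPR, GDF, GREM, TGFB, TGFBR, INHB, SMAD, LTBP, FST and SULF family names, with NOG, CHRD, LEF1, TCF7 and AXIN2. In a table of human gene names 108 symbols met this rule, and 46 of those were among the genes listed in the 2 expression tables: 20 of 2221 genes in a table of 8 lines, 36 of 5383 genes in a table of 3 lines, and 10 in both. The 8 lines were U-87MG, U-138MG, SNU-1105, KNS-42, KALS-1, T98G, LN-18 and LN-229, and the 3 lines were A-172, AM-38 and SNU-466. Per the labels, medium was DMEM for A-172, KNS-42, LN-18 and LN-229, EMEM for AM-38, T98G, U-138MG and U-87MG, and RPMI for KALS-1, SNU-466 and SNU-1105, and serum was at 20% in the medium of AM-38 and at 10% in that of each other line. Each line had 1 medium, so line and medium cannot be told apart. Nothing states that the paired libraries come from 2 cultures, so each p-value reflects only how far these libraries spread, which may be a technical spread. In such bulk RNA, fewer cells with a transcript and less of it per cell cannot be told apart.

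Wnt ligands bind Frizzled receptors (FZD) at the cell surface and act either through beta-catenin and TCF/LEF factors or through routes that do not use beta-catenin. Secreted proteins of the SFRP and DKK families bind the ligands or the co-receptors and restrain the signal, whereas R-spondins (RSPO) raise it. BMP, GDF, activin and TGF-beta ligands bind paired receptor kinases that phosphorylate SMAD proteins. Noggin, chordin and gremlin hold BMPs away from their receptors, follistatin-like proteins share a domain with the activin binder follistatin, and latent TGF-beta binding proteins (LTBP) keep TGF-beta stored in the matrix. In glioma, TGF-beta and BMP signals are known for acting on tumour stem-like cells, with BMPs driving astroglial differentiation.

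Library totals ran from 17117491 to 21011463 reads in the 8-line table and from 16958669 to 21213215 in the 3-line table. Levels are given as FPKM, reads scaled for gene length and library total, which can be compared between genes, and differences as log2 ratios with their standard errors (SE). Tests are edgeR quasi-likelihood tests on the counts with Benjamini-Hochberg adjusted p over all genes tested and all pairs of lines in a table. A pair was called at an adjusted p under 0.05 with an absolute log2 difference of at least 1, and a line stood above or below each other line when every pair passed in 1 direction. The paired libraries were less alike in T98G, where 56.2% of genes with enough reads lay within 1.5-fold, and in SNU-1105, at 74.45%, than in the other lines, at 90.2% or more. How genes were chosen for the tables is not stated, and nearly all of them differed between lines: among genes of the 8 lines 99.28% were at least 2-fold apart between KALS-1, LN-18 and T98G as a set and the other 5 lines, and among genes of the 3 lines 93.9% between SNU-466 and the other lines. Of 14 glial and neural progenitor markers, 3 were listed for the 8 lines and summed to 38.2 to 342.2 FPKM in libraries of KNS-42, LN-229 and SNU-1105 but to at most 1.24 in the rest.

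In the 8 lines, GREM1 and SFRP2, the secreted antagonists with the highest levels among the 20 genes, were each high in 2 lines. Each passed 100 FPKM in 1 line and lay near 0 in others, WNT7B was high in U-87MG and SNU-1105, and TGFB2 was highest in KALS-1. All 20 genes passed the low-count filter and all 20 differed among lines, against 99.7% of all 2095 genes tested, so that count sets them apart in no way. Their median range between highest and lowest line was 8.52 on the log2 scale, against 6.87 for all genes tested. For 9 genes 1 line stood above each of the others (47.1% of all genes did so), and for 4 genes 1 line stood below each of the others (15% of all genes). With both T98G libraries left out, an alternative chosen after seeing the data, 1 line stood below each of the others for 8 genes (18.7% of all genes). Without both SNU-1105 libraries, a like choice, KNS-42 stood above each remaining line for SFRP2 and SULF1, U-138MG for WNT16 and U-87MG for WNT7B. SNU-1105 had been highest or next to highest for each of these genes, so these calls follow from leaving it out. The share of all genes was not counted for this choice. At least 1 line reached 10 FPKM for 12 of the 20 genes, and 6 had a line with 0 reads in both libraries.

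**Figure D1:**
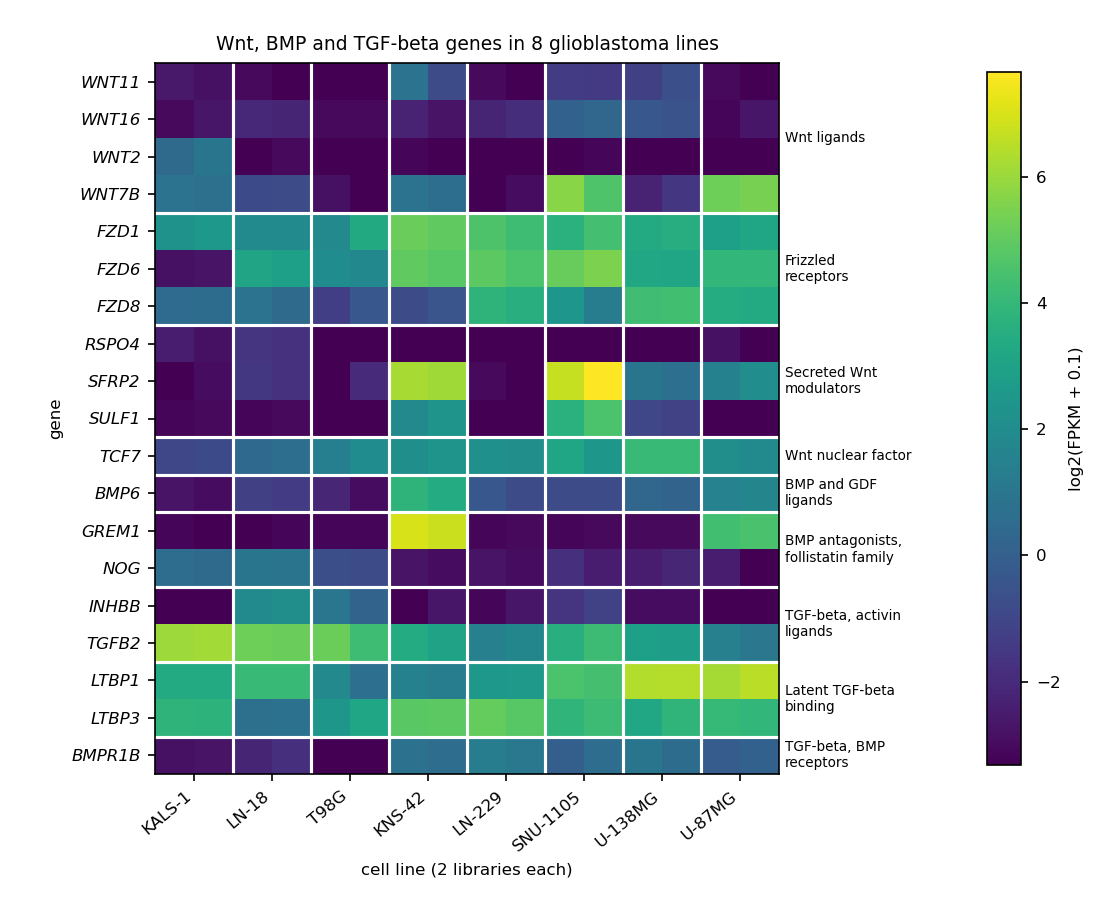
Level of 19 Wnt, BMP and TGF-beta pathway genes (down, grouped by role) in 8 glioblastoma lines (across, with 2 columns per line, 1 for each library), where colour gives log2(FPKM + 0.1). GREM1 is bright in KNS-42 and U-87MG, SFRP2 in SNU-1105 and KNS-42, and TGFB2 in KALS-1.

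Promoters of 3 genes with contrasting patterns are shown first, GREM1 and SFRP2 as the antagonists with the highest levels among the 20 genes and TGFB2 as the only TGF-beta isoform among them. They are the 250 bases before the RefSeq start on GRCh38.p14, 5′ to 3′ on the strand of the gene: chr15:32717754-32718003 on the plus strand for GREM1, chr4:153789084-153789333 on the minus strand for SFRP2 and chr1:218345086-218345335 on the plus strand for TGFB2. Capitals mark matches on either strand to a TATA box (TATAAA), a SMAD-binding motif (CAGAC, or GTCTG read from the other strand), a GC box (GGGCGG) or a TCF/LEF motif (CTTTGAT, which none of the 3 held).
GREM1: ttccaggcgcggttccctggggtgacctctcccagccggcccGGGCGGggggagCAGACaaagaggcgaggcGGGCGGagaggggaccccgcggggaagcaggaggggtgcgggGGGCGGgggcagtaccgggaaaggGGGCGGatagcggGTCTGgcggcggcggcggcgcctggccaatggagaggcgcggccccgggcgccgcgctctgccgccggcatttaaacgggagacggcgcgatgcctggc
SFRP2: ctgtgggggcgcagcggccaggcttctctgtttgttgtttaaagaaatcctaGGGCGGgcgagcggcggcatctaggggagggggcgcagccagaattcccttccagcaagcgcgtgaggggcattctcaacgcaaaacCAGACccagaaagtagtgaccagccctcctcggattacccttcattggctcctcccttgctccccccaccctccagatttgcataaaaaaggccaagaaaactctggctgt
TGFB2: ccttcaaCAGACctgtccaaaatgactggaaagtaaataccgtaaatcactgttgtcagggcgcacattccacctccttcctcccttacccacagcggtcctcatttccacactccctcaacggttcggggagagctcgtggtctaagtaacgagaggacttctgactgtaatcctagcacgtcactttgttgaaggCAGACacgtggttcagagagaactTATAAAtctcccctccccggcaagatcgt
GREM1 had 32 CpG dinucleotides and 76.8% GC in these bases, with 4 GC boxes and 2 SMAD motifs. SFRP2 had 11 CpG, 1 GC box and 1 SMAD motif, and TGFB2 had 11 CpG, 2 SMAD motifs and a TATA box that began 29 bases before the start. No 2 matches overlapped in these windows. Of 27305 RefSeq promoters, taken as 300 bases (250 before to 50 after the start), 11.95% held the TATA box, 45.0% the SMAD motif, 44.6% the GC box and 2.64% the TCF/LEF motif. A match describes letters and shows no binding.

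The antagonists of BMPs came with separate patterns. GREM1 (ENSG00000166923, chromosome 15, 32717974 to 32745107, GENCODE 29 on GRCh38), a secreted binder of BMP2, BMP4 and BMP7, had 127 and 111 FPKM in the libraries of KNS-42 and 20.2 and 22.8 in U-87MG. In the other 6 lines it had at most 0.02 FPKM, from 2 to 12 reads per line. KNS-42 lay above U-87MG by 2.46 (SE 0.27, adjusted p = 2.06e-07), and no library of either line overlapped with the rest. NOG, which encodes noggin, had 1.86 and 1.78 FPKM in LN-18, 1.43 and 1.28 in KALS-1 and 0.53 and 0.49 in T98G, and at most 0.19 in any library of the other 5 lines. LN-18 and KALS-1 did not differ beyond their spread for NOG (0.42, SE 0.39, adjusted p = 0.354), and both were above T98G. So GREM1 and NOG peaked in different lines.

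BMP6 was the BMP ligand listed for these lines, and BMPR1B, a type I BMP receptor kinase, was the receptor. BMP6 had 14.2 and 10.7 FPKM in KNS-42, 2.85 and 3.11 in U-87MG and at most 1.12 in the other libraries, so it ordered the top pair of lines as GREM1 did. KNS-42 exceeded U-87MG for BMP6 by 2.06 (SE 0.28, adjusted p = 3.99e-06), and U-87MG exceeded U-138MG by 1.46 (SE 0.30, adjusted p = 0.000267). The lowest libraries were in KALS-1 (0.05 and 0.03) and T98G (0.13 and 0.03). BMPR1B lay between 0.82 and 2.41 FPKM in every library of LN-229, U-138MG, KNS-42, SNU-1105 and U-87MG, and neighbours in that order did not differ beyond their spread. LN-18 had 0.12 and 0.19 and KALS-1 0.04 and 0.05, and T98G had 0 reads in both libraries, which puts LN-229 at least 173.5-fold higher against a floor of 3 reads over the 2 libraries. T98G was below each other line for BMPR1B, as for 4.63% of all genes.

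TGFB2, the TGF-beta ligand first isolated from glioblastoma as an immune suppressor, had 66.3 and 70.3 FPKM in KALS-1, then 38.0 and 35.3 in LN-18 and 37.0 and 18.9 in T98G. SNU-1105 followed at 11.7 and 18.2, KNS-42 at 10.6 and 8.02, U-138MG at 7.31 and 6.84, LN-229 at 2.69 and 3.24, and U-87MG at 2.65 and 1.93. The lowest T98G library lay just above the highest SNU-1105 library. KALS-1 exceeded LN-18 by 0.90 (SE 0.28, adjusted p = 0.0085), under the fold needed for a call, and LN-18 and T98G did not differ beyond their spread (0.39, SE 0.28, adjusted p = 0.231). INHBB, the beta B subunit of activins and inhibins, had 3.6 and 4.22 FPKM in LN-18, 1.9 and 1.04 in T98G, 0.21 and 0.34 in SNU-1105 and at most 0.06 in the rest. LN-18 exceeded T98G by 1.41 (SE 0.41, adjusted p = 0.0063), and without the second LN-18 library this was no longer called (1.29, adjusted p = 0.0511). KALS-1 and U-87MG had 0 INHBB reads, at least 153.5-fold and 169.4-fold below LN-18.

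Latent TGF-beta binding proteins were abundant and opposed in some lines. LTBP1 had 85.5 and 87.9 FPKM in U-138MG and 72.2 and 92.8 in U-87MG, which did not differ beyond their spread (0.07, SE 0.26, adjusted p = 0.844). SNU-1105 had 23.8 and 21.6, LN-18 16.7 and 17.0, KALS-1 10.5 in both libraries, LN-229 5.76 and 5.87, KNS-42 2.72 and 2.35 and T98G 3.48 and 1.53. U-87MG stood above SNU-1105 by 1.86 (SE 0.26, adjusted p = 5.49e-06). LTBP3 was instead highest in LN-229, at 33.6 and 28.4 FPKM, and KNS-42, at 28.55 and 29.9, both among the 3 lowest lines for LTBP1. The next 5 lines lay between 5.60 and 18.6 FPKM for LTBP3, and LN-18 had 1.54 and 1.59, below its nearest line T98G by 2.18 (SE 0.24, adjusted p = 2.42e-07). LN-18 was below each other line for 2.82% of all genes.

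**Figure D2:**
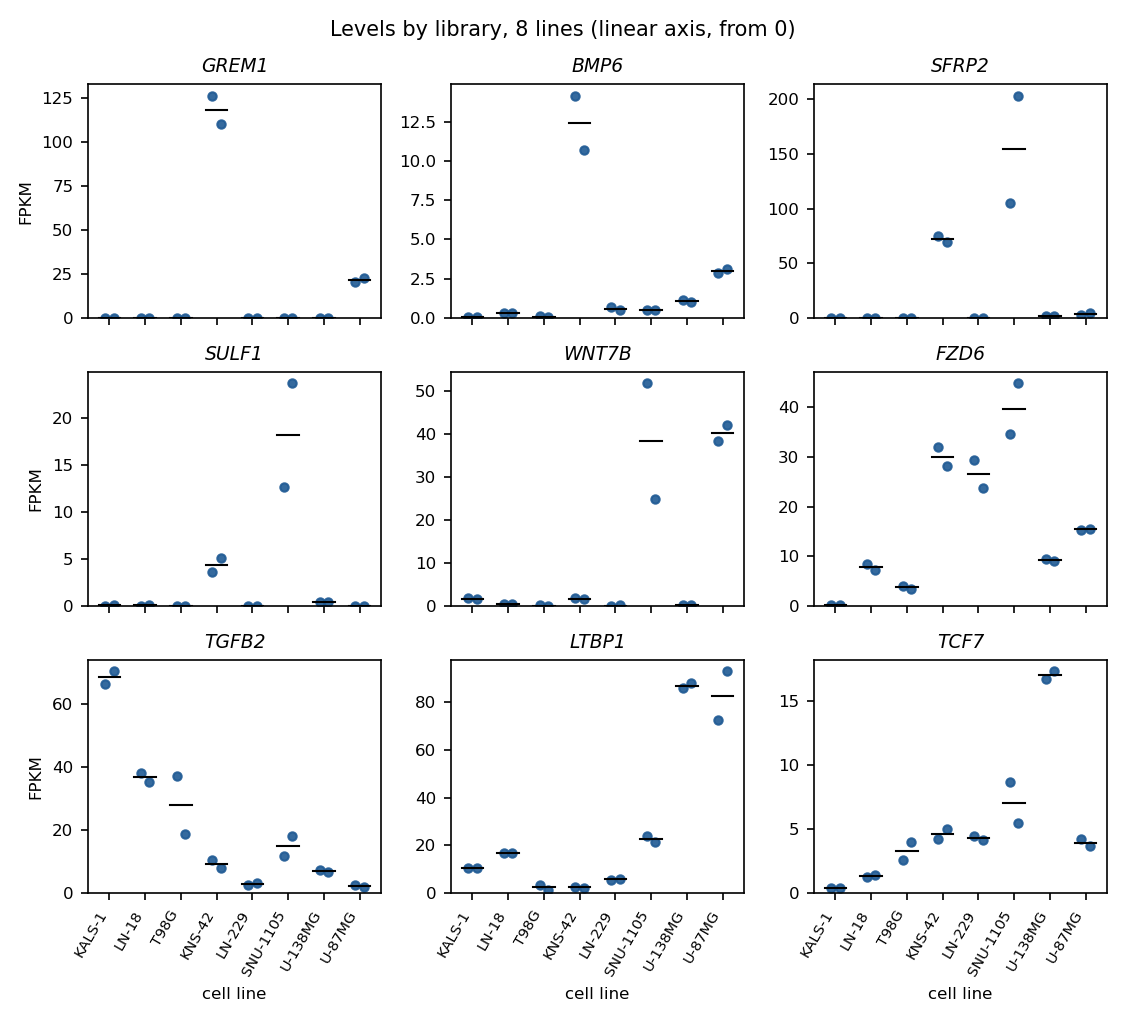
FPKM on linear axes from 0 for 9 pathway genes in the 8 lines (across), with 1 point per library and a bar at the mean of the 2 libraries. GREM1 lies at 127 and 111 in KNS-42, 20.2 and 22.8 in U-87MG and at most 0.02 in the other 6 lines, and the SFRP2 and SULF1 points of SNU-1105 lie far apart.

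Among Wnt ligands, WNT7B, which acts through beta-catenin in the brain vasculature, had 38.3 and 42.1 FPKM in U-87MG and 51.7 and 24.9 in SNU-1105. These lines did not differ beyond their spread (0.07, SE 0.33, adjusted p = 0.896), and SNU-1105 exceeded the next line, KALS-1, by 4.56 (SE 0.39, adjusted p = 7.07e-09). KALS-1 (1.70 and 1.56) and KNS-42 (1.70 and 1.46) were close, and LN-18, U-138MG, T98G and LN-229 had at most 0.48. WNT2 was found in KALS-1, at 1.3 and 1.85 FPKM from 255 reads. LN-18 had 2 reads of it, KNS-42 and SNU-1105 1 each, and LN-229, T98G, U-138MG and U-87MG 0, which puts KALS-1 at least 82.4-fold higher than each of the latter. KALS-1 stood above each other line for 8.83% of all genes.

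WNT11, a ligand of the routes without beta-catenin, had 1.74 and 0.47 FPKM in KNS-42, 0.32 and 0.55 in U-138MG, 0.28 and 0.27 in SNU-1105 and at most 0.07 elsewhere. The libraries of KNS-42 and U-138MG overlapped, and the call of KNS-42 above U-138MG (1.34, SE 0.55, adjusted p = 0.0422) was lost in several alternatives, down to 0.13 (adjusted p = 0.9) without the first KNS-42 library. WNT16 had 0.98 and 1.13 FPKM in SNU-1105 and 0.68 and 0.60 in U-138MG, which did not differ beyond their spread (0.73, SE 0.38, adjusted p = 0.103), and at most 0.17 in the other lines. U-138MG exceeded LN-229 for WNT16 by 2.14 (SE 0.46, adjusted p = 0.000517).

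The 3 Frizzled receptors were present at 1 FPKM or more in most lines. FZD1 ran from 35.8 and 31.4 FPKM in KNS-42 and 23.8 and 18.9 in LN-229 through 13.0 and 21.0 in SNU-1105, 10.4 and 11.6 in U-138MG, 7.25 and 8.97 in U-87MG, 3.52 and 10.1 in T98G and 4.74 and 5.67 in KALS-1 to 3.67 and 3.73 in LN-18. No 2 neighbours in that order differed beyond their spread, so FZD1 formed a gradient. FZD8 had 19.6 and 20.2 FPKM in U-138MG, 14.3 and 11.8 in LN-229, 11.1 and 10.5 in U-87MG, 5.44 and 2.46 in SNU-1105, 1.72 and 1.29 in LN-18, 1.35 and 1.36 in KALS-1, 0.48 and 0.64 in KNS-42 and 0.31 and 0.68 in T98G. KNS-42 was thus highest for FZD1 and among the lowest pair for FZD8. FZD6 had 34.5 and 44.8 FPKM in SNU-1105, 32.0 and 28.1 in KNS-42, 29.4 and 23.7 in LN-229, 15.2 and 15.6 in U-87MG, 9.38 and 9.02 in U-138MG, 8.34 and 7.22 in LN-18 and 4 and 3.41 in T98G. KALS-1 had 0.04 and 0.05 FPKM of FZD6 from 7 reads, 6.26 below T98G (SE 0.33, adjusted p = 1.95e-11). KALS-1 stood below each other line for 2% of all genes.

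Among secreted Wnt modulators, SFRP2 reached levels near those of GREM1. SFRP2 (ENSG00000145423, chromosome 4, 153780592 to 153789120, minus strand), a secreted decoy of Wnt ligands, had 105 and 203 FPKM in SNU-1105 and 74.8 and 69.5 in KNS-42. It had 2.76 and 4.10 in U-87MG, 1.84 and 1.5 in U-138MG, 0.24 and 0.20 in LN-18 and at most 0.15 in T98G, KALS-1 and LN-229. SNU-1105 exceeded KNS-42 by 1.10 (SE 0.32, adjusted p = 0.00563), but without the second SNU-1105 library the difference was 0.54, under the fold needed. So 1 library decided the call but not the order, as both SNU-1105 libraries lay above both KNS-42 libraries. KNS-42 exceeded U-87MG by 4.39 (SE 0.37, adjusted p = 6.76e-09). SULF1, a sulfatase that trims heparan sulfate and so alters how Wnt and BMP ligands are held at the cell, followed the same pair of lines, with 12.7 and 23.8 FPKM in SNU-1105 and 3.56 and 5.08 in KNS-42. U-138MG had 0.40 and 0.35 of SULF1, KALS-1 and LN-18 at most 0.02, and LN-229, T98G and U-87MG 0 reads, at least 2049.6-fold below SNU-1105. SNU-1105 exceeded KNS-42 for SULF1 by 2.08 (SE 0.31, adjusted p = 1.98e-05). SNU-1105 stood above each other line for 1% of all genes. RSPO4, an R-spondin, reached only 0.21 and 0.20 FPKM in LN-18 from 22 reads, 6 reads in KALS-1, 2 in U-87MG and 0 in the other 5 lines.

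TCF7, a nuclear partner of beta-catenin, had 16.7 and 17.4 FPKM in U-138MG, 8.67 and 5.46 in SNU-1105, 4.28 and 4.99 in KNS-42, 4.45 and 4.15 in LN-229, 4.24 and 3.68 in U-87MG, 2.59 and 3.99 in T98G, 1.27 and 1.46 in LN-18 and 0.41 and 0.45 in KALS-1. U-138MG exceeded SNU-1105 by 1.27 (SE 0.24, adjusted p = 0.000134), and KALS-1 lay below LN-18 by 1.67 (SE 0.26, adjusted p = 2.06e-05). Between SNU-1105 and T98G, no line was called apart from the next in that order. Without the second SNU-1105 library the difference to U-138MG was 0.97, under the fold needed. U-138MG stood above each other line for 4.25% of all genes, KNS-42, which did so for GREM1, BMP6 and WNT11, for 8.35%, and LN-18, which did so for INHBB, for 9.5%.

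Of the 20 genes, 15 had a higher mean in the other 5 lines than in KALS-1, LN-18 and T98G, and 5 (TGFB2, NOG, INHBB, WNT2 and RSPO4) had a higher mean in those 3 lines. Of all listed genes, 40.4% had a higher mean in those 3 lines. Because the table's genes differ along this division, it was not tested. The libraries did not overlap for 5 genes, NOG and TGFB2 on the side of the 3 lines and BMP6, BMPR1B and FZD6 on the side of the 5, beside 12.4% of all listed genes. KALS-1, LN-18 and T98G also had SOX2 at or under 1.23 FPKM, but so did U-138MG and U-87MG, whereas KNS-42 had 311.6 and 325.6. Of the 3 mesenchymal markers listed, VIM and PRRX1 did follow the division. VIM had 238.8 to 463.5 FPKM in the 3 lines and 627.7 to 1045 in the 5. PRRX1 had at most 7.16 in the 3 lines and at least 13.73 in the 5. FN1 did not follow it, with 10.38 and 8.58 in KNS-42 against 19.35 to 131.64 in the 3 lines. The 4 epithelial markers listed summed to 66.1 to 94.1 FPKM in KALS-1 and LN-18, 37.8 and 19.3 in T98G and at most 19.6 in the 5 lines. The part of such differences in cell state in these results was not tested.

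Pairs of lines differed in how many of the 20 genes were called between them. The fewest were called between LN-229 and U-87MG, 8 of 20 (49.8% of all genes), and between KALS-1 and LN-18, 9 of 20 (49.7%). The most, 18 of 20, were called between KALS-1 and SNU-1105 (58.5%), KALS-1 and U-138MG (68.2%) and KNS-42 and LN-18 (71%). Pairs that share a line share its libraries.

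In the 3 lines, SNU-466 stood apart, as it did over all listed genes, 93.9% of which were at least 2-fold apart between it and the other lines. It had the highest levels of 22 genes by test (32.3% of all genes), among them FSTL1, DKK3, TGFBR2, INHBB, SFRP1 and FZD9. It had the lowest levels of 9 (45.8% of all genes), among them DKK1, NOG, FSTL3, WNT5B and FSTL5. A-172 held the most DKK1, NOG and CHRD, and AM-38 the most WNT5B and FSTL5. All 36 genes passed the low-count filter and 35 differed among the lines (98.3% of all 5035 genes tested did so), FZD1 being the exception with a range of 0.93. The median range was 5.59 on the log2 scale, against 3.82 for all genes tested.

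SNU-466 exceeded A-172 for 23 of 36 genes (34.8% of all genes) and lay below it for 10 (49.9%), with a median difference of 2.02 against -1.28 over all genes. It exceeded AM-38 for 24 (40.1%) and lay below it for 9 (51.6%), with a median of 2.13 against -1.23. These 2 comparisons share the SNU-466 libraries. AM-38 exceeded A-172 for 5 (24.6%) and lay below it for 13 (24.2%), with a median of -0.76 against -0.05. SNU-466 stood above both other lines for 22 genes (32.3% of all genes) and below both for 9 (45.8%). A-172 stood above both for 4 genes, DKK1, NOG, CHRD and WNT7B (13.2%), and below both for BMP6 and FSTL4 (5.22%). AM-38 stood above both for WNT5B, FSTL5 and DKK2 (19.5%) and below both for 9 genes (11%). The table's genes were mostly ones that set SNU-466 apart, so the counts describe listed genes only.

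**Figure D3:**
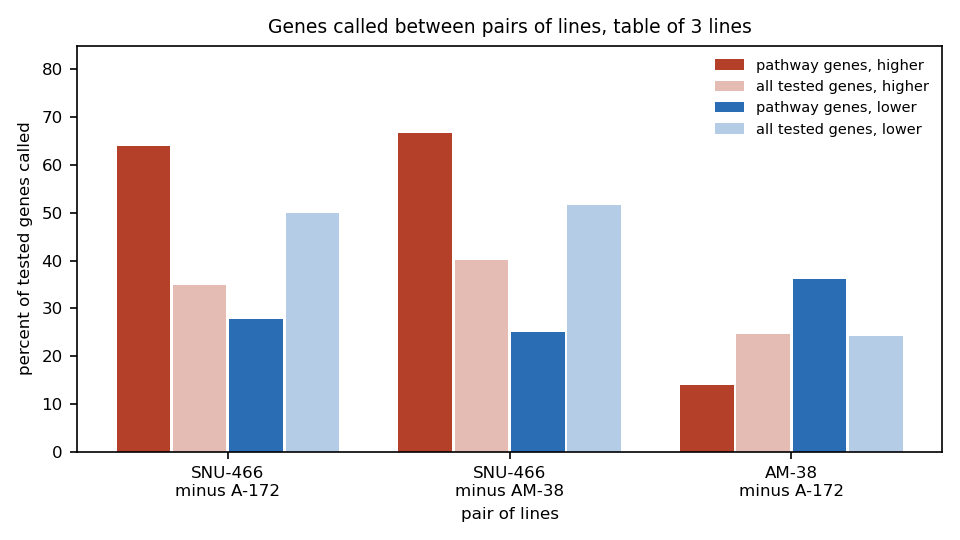
Percent of tested genes called higher (red) or lower (blue) in each pair of the 3 lines, with solid bars for the 36 pathway genes and pale bars for all 5035 genes tested. The solid red bars stand for 23, 24 and 5 genes and the solid blue bars for 10, 9 and 13, and the pairs share libraries.

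**Figure D4:**
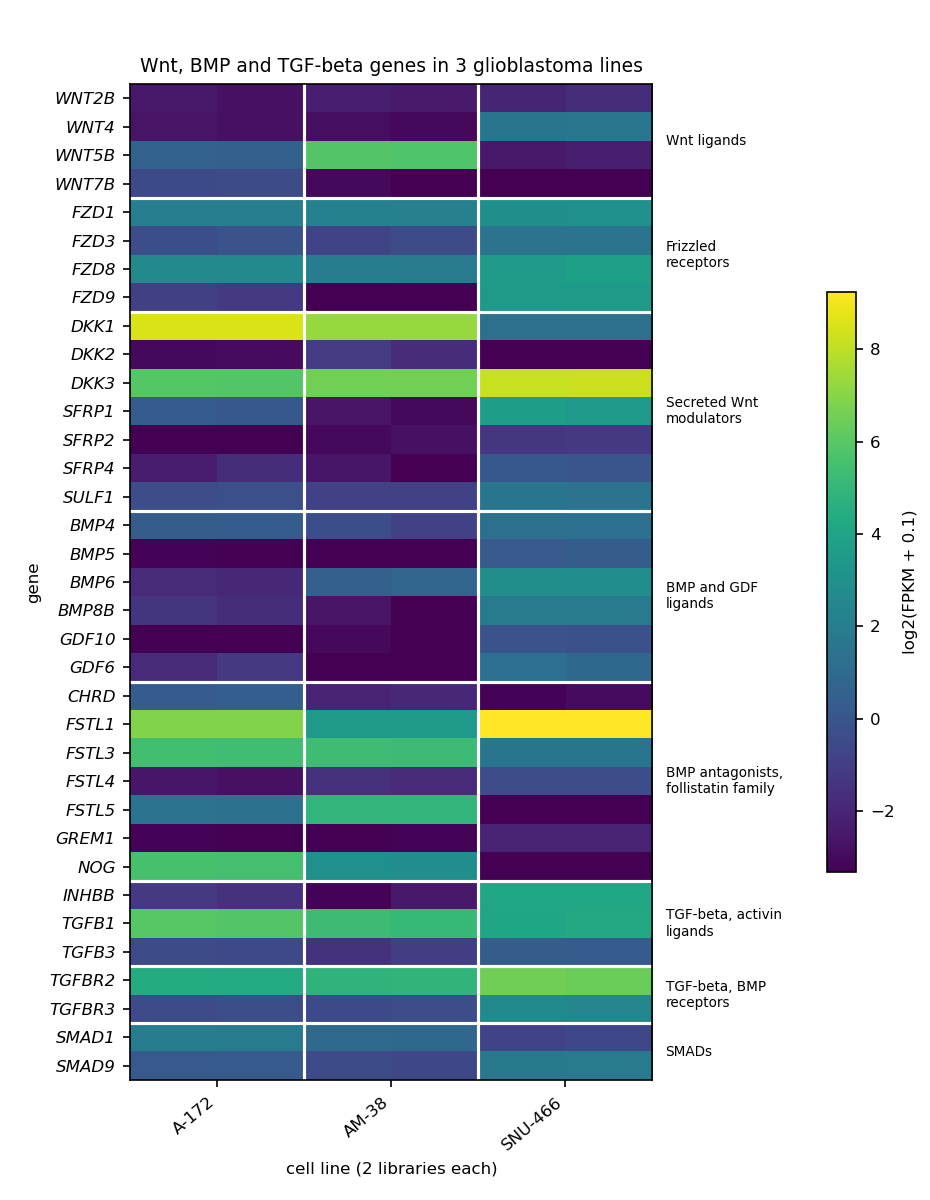
Level of 35 pathway genes (down, grouped by role) in A-172, AM-38 and SNU-466 (across, with 2 columns per line, 1 for each library), where colour gives log2(FPKM + 0.1). FSTL1 and DKK3 are brightest in SNU-466, DKK1 in A-172 and WNT5B in AM-38.

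Promoters of DKK1, WNT5B and FSTL5 are shown because each gene was highest in A-172 or AM-38 and lowest in SNU-466. They are the 250 bases before the RefSeq start on GRCh38.p14, marked as above: chr10:52314031-52314280 on the plus strand for DKK1, chr12:1616806-1617055 on the plus strand for WNT5B and chr4:162164001-162164250 on the minus strand for FSTL5.
DKK1: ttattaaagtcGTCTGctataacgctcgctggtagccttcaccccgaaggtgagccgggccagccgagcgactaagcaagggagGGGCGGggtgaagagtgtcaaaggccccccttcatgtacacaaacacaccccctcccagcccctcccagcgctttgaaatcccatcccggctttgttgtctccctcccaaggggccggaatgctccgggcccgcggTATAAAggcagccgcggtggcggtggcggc
WNT5B: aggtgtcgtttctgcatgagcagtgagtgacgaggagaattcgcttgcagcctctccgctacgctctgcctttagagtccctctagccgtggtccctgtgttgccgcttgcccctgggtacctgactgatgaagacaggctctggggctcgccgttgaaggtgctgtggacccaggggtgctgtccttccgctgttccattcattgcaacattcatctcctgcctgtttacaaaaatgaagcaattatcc
FSTL5: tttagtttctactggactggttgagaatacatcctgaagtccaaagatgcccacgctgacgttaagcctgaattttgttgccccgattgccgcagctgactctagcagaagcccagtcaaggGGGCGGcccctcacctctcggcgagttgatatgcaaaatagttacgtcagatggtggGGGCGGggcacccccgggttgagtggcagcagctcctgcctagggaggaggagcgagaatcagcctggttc
DKK1 had 18 CpG, a TATA box that began 30 bases before the start, 1 GC box and 1 SMAD motif on the other strand. WNT5B held none of the 4 motifs and had 10 CpG, and FSTL5 had 2 GC boxes and 11 CpG. Of the 46 genes, 35 had a promoter in the table: 6 held the TATA box, 17 the SMAD motif, 25 the GC box and 0 the TCF/LEF motif, in the same windows of 300 bases as above.

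The secreted Wnt modulators differed in which line was highest. DKK1 (ENSG00000107984, chromosome 10, 52314296 to 52318042, plus strand), a secreted blocker of the Wnt co-receptors LRP5 and LRP6, had 368.2 and 370.3 FPKM in A-172, 158.3 and 159.0 in AM-38 and 2.36 and 2.41 in SNU-466. A-172 exceeded AM-38 by 1.22 (SE 0.04, adjusted p = 4.01e-43) and AM-38 exceeded SNU-466 by 6.05 (SE 0.07, adjusted p = 1.74e-78). DKK3, a family member without that clear a role as a Wnt blocker, had the reverse order, with 296.0 and 303.8 FPKM in SNU-466, 95.6 and 94.6 in AM-38 and 60.5 and 59.1 in A-172. SNU-466 exceeded AM-38 for DKK3 by 1.66 (SE 0.04, adjusted p = 2.03e-57). DKK2 was low throughout, at 0.36 and 0.20 in AM-38, 0.02 and 0.03 in A-172 and 0 reads in SNU-466, and its call of A-172 over SNU-466 was lost on leaving out either SNU-466 library (adjusted p = 0.105 and 0.126) or the second A-172 library (0.0841).

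SFRP1, a secreted binder of Wnt ligands, had 13.3 and 11.2 FPKM in SNU-466, 1.16 and 1.01 in A-172 and 0.06 and 0.02 in AM-38, with SNU-466 above A-172 by 3.50 (SE 0.12, adjusted p = 1.7e-44). SULF1 had 2.86 and 2.63 in SNU-466, 0.69 and 0.74 in A-172 and 0.45 and 0.43 in AM-38, with SNU-466 above A-172 by 1.94 (SE 0.12, adjusted p = 1.11e-25). SFRP4 had 1.01 and 0.91 in SNU-466, 0.10 and 0.21 in A-172 and 0.07 and 0 in AM-38, and A-172 was not called above AM-38 without the second A-172 (1.51) or second AM-38 library (1.21). SFRP2 was at 0.30 and 0.33 in SNU-466, 0.02 and 0.05 in AM-38 and 0 reads in A-172. In all 4 of these genes SNU-466 stood above both other lines, as for 32.3% of all genes, and its libraries did not overlap with the rest. SFRP2, with 23 reads in SNU-466, was not tested without the second SNU-466 library because it then failed the low-count filter.

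**Figure D5:**
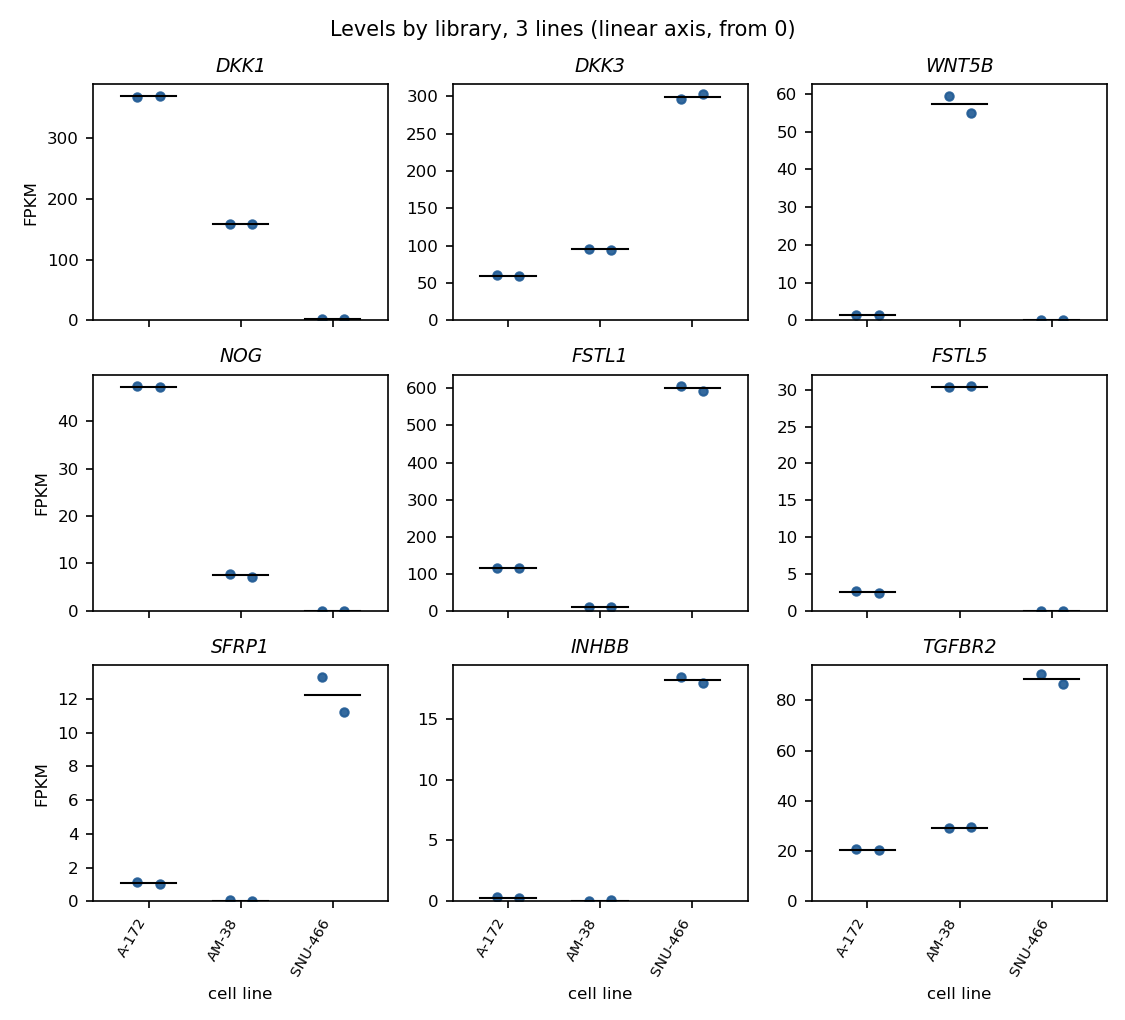
FPKM on linear axes from 0 for 9 pathway genes in A-172, AM-38 and SNU-466 (across), with 1 point per library and a bar at the mean of the 2 libraries. The libraries of a line lie close together, and DKK1 goes from 368.2 and 370.3 in A-172 to 2.36 and 2.41 in SNU-466.

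Of the 4 Wnt ligands, WNT5B was the abundant one. WNT5B, which acts mainly without beta-catenin, had 59.5 and 55.0 FPKM in AM-38, 1.44 and 1.33 in A-172 and 0.08 and 0.11 in SNU-466. AM-38 exceeded A-172 by 5.37 (SE 0.09, adjusted p = 1.37e-68), and A-172 exceeded SNU-466 by 3.82 (SE 0.26, adjusted p = 5.02e-24). WNT4, a ligand known from kidney and gonad development, had 2.82 and 2.91 in SNU-466, 0.06 and 0.05 in A-172 and 0.04 and 0.02 in AM-38, with SNU-466 above A-172 by 5.69 (SE 0.29, adjusted p = 3.76e-32). WNT7B had 0.61 and 0.67 in A-172, 2 reads in AM-38 and 0 in SNU-466, at least 39.7-fold below A-172. WNT2B stayed at or under 0.21 in all 6 libraries and no neighbours in its order were called apart, though SNU-466 was called above A-172 (1.436, SE 0.342, adjusted p = 8.68e-05). So each of the 3 lines was highest for a different Wnt ligand.

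SNU-466 was highest by test for 3 of the 4 Frizzled receptors (32.3% of all genes). FZD8 had 12 and 14.1 FPKM in SNU-466, 6.03 and 5.99 in A-172 and 3.84 and 3.43 in AM-38, but its margin over A-172 (1.12, SE 0.09, adjusted p = 9.1e-21) fell under the fold needed with TMM (0.92) and RLE (0.81) scaling and without the second SNU-466 library. FZD9 had 10.8 and 11.4 in SNU-466, 0.42 and 0.32 in A-172 and 0 reads in AM-38, at least 356.6-fold below SNU-466. SNU-466 exceeded A-172 for FZD9 by 4.92 (SE 0.19, adjusted p = 1.51e-39). FZD3, a receptor of the planar polarity route, had 2.79 and 2.75 in SNU-466, 0.72 and 0.82 in A-172 and 0.49 and 0.66 in AM-38. FZD1 had 7.57 and 7.72 in SNU-466, 4.44 and 4.27 in AM-38 and 4.03 and 4.01 in A-172, a difference of 0.81 to AM-38 (SE 0.08, adjusted p = 1.31e-15), under the fold needed.

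All 6 BMP and GDF ligands had their highest mean in SNU-466, and 5 of them by test (32.3% of all genes). BMP6 had 7.32 and 7.05 FPKM there, 1.33 and 1.63 in AM-38 and 0.19 and 0.16 in A-172, with SNU-466 above AM-38 by 2.28 (SE 0.13, adjusted p = 5.01e-29). BMP8B had 3.35 and 3.62 in SNU-466, 0.27 and 0.21 in A-172 and 0.06 and 0 in AM-38, but BMP8B shares near-identical sequence with BMP8A, so its reads are uncertain. BMP4, a ligand that drives glioma stem-like cells toward astroglia, had 2.36 and 2.27 in SNU-466, 1.22 and 1.17 in A-172 and 0.72 and 0.44 in AM-38. SNU-466 exceeded A-172 for BMP4 by 0.95 (SE 0.19, adjusted p = 4.55e-06), short of a call. AM-38 lay below A-172 by 1.04, a call that was lost with TMM (0.96) and RLE (0.84) scaling and without the second AM-38 library (0.74). GDF6 had 2.27 and 1.74 in SNU-466, 0.18 and 0.32 in A-172 and 0 reads in AM-38, at least 102.0-fold lower. BMP5 had 1.05 and 1.21 in SNU-466, 1 read in A-172 and 0 in AM-38, at least 61.5-fold lower. GDF10 had 0.82 and 0.78 in SNU-466, 1 read in AM-38 and 0 in A-172, at least 28.3-fold lower.

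BMP antagonists and follistatin-like genes split between the lines. FSTL1 (ENSG00000163430, chromosome 3, 120392293 to 120451253, minus strand), a secreted glycoprotein, had 606.2 and 593.2 FPKM in SNU-466, 115.2 and 115.7 in A-172 and 10.7 and 10.5 in AM-38, the highest level of any of the 36 genes. SNU-466 exceeded A-172 by 2.38 (SE 0.04, adjusted p = 7.87e-69). GREM1, at 0.13 in both SNU-466 libraries and at most 0.01 in the others, and FSTL4, at 0.68 in both SNU-466 libraries, 0.25 and 0.19 in AM-38 and 0.07 and 0.05 in A-172, had the same top line at low levels.

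NOG went the other way. It had 47.4 and 47.1 FPKM in A-172, 7.79 and 7.16 in AM-38 and 0 reads in SNU-466, at least 1102.8-fold below A-172. A-172 exceeded AM-38 for NOG by 2.66 (SE 0.09, adjusted p = 7.41e-45). CHRD, which encodes chordin, had 1.17 and 1.25 in A-172, 0.14 and 0.17 in AM-38 and 0.01 and 0.03 in SNU-466, with A-172 above AM-38 by 2.94 (SE 0.24, adjusted p = 1.24e-19). FSTL3, a binder of activins, had 43.3 and 41.4 in A-172, 41.0 and 38.4 in AM-38 and 2.84 and 2.89 in SNU-466. A-172 and AM-38 did not differ beyond their spread for FSTL3 (0.09, SE 0.06, adjusted p = 0.127), and AM-38 exceeded SNU-466 by 3.79 (SE 0.08, adjusted p = 4.41e-58). FSTL5 had 30.4 and 30.5 in AM-38, 2.64 and 2.46 in A-172 and 0 reads in SNU-466, at least 1975.9-fold below AM-38. AM-38 exceeded A-172 for FSTL5 by 3.58 (SE 0.08, adjusted p = 4.06e-57). NOG, CHRD and FSTL3 thus shared A-172 and AM-38 above SNU-466, while FSTL1 and FSTL4 had SNU-466 above both.

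TGF-beta and activin ligands also differed in direction. TGFB1 had 63.2 and 59.5 FPKM in A-172, 39.0 and 34.0 in AM-38 and 16.4 and 19.3 in SNU-466, with AM-38 above SNU-466 by 1.03 (SE 0.06, adjusted p = 8.29e-27). That call was lost without the first AM-38 library (0.93) and without the first SNU-466 library (0.92). INHBB had 18.4 and 17.9 in SNU-466, 0.32 and 0.25 in A-172 and 0.01 and 0.08 in AM-38, with SNU-466 above A-172 by 5.99 (SE 0.16, adjusted p = 4.1e-52). TGFB3 lay at 1.19 and 1.18 in SNU-466, 0.65 and 0.58 in A-172 and 0.26 and 0.39 in AM-38. Neighbours were not called apart for TGFB3, but SNU-466 was called above AM-38 (1.855, SE 0.227, adjusted p = 6.51e-12). SNU-466 had the most receptor: TGFBR2, the type II receptor kinase, had 90.4 and 86.7 FPKM there, 29.1 and 29.6 in AM-38 and 21.0 and 20.3 in A-172. SNU-466 exceeded AM-38 for TGFBR2 by 1.59 (SE 0.05, adjusted p = 1.85e-49). TGFBR3, the betaglycan co-receptor, had 6.12 and 5.46 in SNU-466 and 0.61 to 0.71 in the other libraries, with SNU-466 above A-172 by 3.09 (SE 0.11, adjusted p = 1.09e-41).

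The 2 receptor SMADs listed, both of the BMP branch, differed in the place of SNU-466, lowest for SMAD1 and highest for SMAD9. SMAD1 had 3.77 and 3.48 FPKM in A-172, 1.94 and 1.78 in AM-38 and 0.49 and 0.57 in SNU-466, with AM-38 above SNU-466 by 1.81 (SE 0.15, adjusted p = 2.65e-19). SMAD9 had 3.28 and 3.40 in SNU-466, 1.05 and 1.07 in A-172 and 0.64 and 0.56 in AM-38, with SNU-466 above A-172 by 1.65 (SE 0.13, adjusted p = 4.53e-20).

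SNU-466 also differed from both other lines in markers of cell type. Of 14 glial and neural progenitor markers 10 were listed, summing to 1266 and 1273 FPKM in SNU-466, mostly through S100B, against 93.8 to 111.9 in libraries of the other lines. S100B had 958 FPKM and SOX10 133 and 140 in SNU-466, against at most 0.97 in the other libraries, and GFAP 3.31 and 3.51 against at most 0.12. SOX9 was the reverse, with 0.05 and 0.04 against 47.0 to 67.7. BCAN was also lowest in SNU-466, at 0.54 and 0.69 against 0.98 to 3.83. ALDH1L1 had 0.01 and 0.03 there, against 1.53 and 1.39 in AM-38. Of the 10, SNU-466 was called above A-172 for 6 (34.8% of all genes) and below it for 2 (49.9%). Against AM-38 it was above for 7 (40.1%) and below for 2 (51.6%). Of 8 mesenchymal markers 4 were listed, summing to 1520 and 1515 FPKM against 22.8 to 59.9, mostly through COL1A2 at 945.2 and 943.1. PRRX1, another of the 4, went the other way, with 0.04 and 0.05 in SNU-466 against 2.67 to 3.45. Epithelial markers were near 0 in SNU-466, at 0.09 and 0.13 for the 2 listed, against 79.1 to 472.0. Their part in the differences of pathway genes was not tested.

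A further list held 110 symbols of the same pathways that the symbol rule leaves out, with CCN1 and CCN2 also under the names CYR61 and CTGF. Of these, 17 were listed for the 8 lines, and all 17 were tested and differed. Their median range was 6.15 on the log2 scale, beside 99.7% differing and a median of 6.87 for all genes tested. HTRA1, a protease of TGF-beta family proteins, ran from 6.72 FPKM in LN-18 to 299.8 in SNU-1105, and FBN1, a fibrillin that anchors LTBPs, from 2.87 in T98G to 228.2 in U-138MG. CHRDL1, a BMP antagonist, reached 57.0 in U-138MG and was at most 0.54 in 5 lines, and LGR5, an R-spondin receptor, had 28.8 and 28.7 in KALS-1 and at most 0.17 elsewhere. LGR4, of the same receptor family, lay between 1.12 and 23.6.

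In the 3 lines 37 of these 110 symbols were listed, and the 36 tested all differed (98.3% of all genes). SNU-466 exceeded A-172 for 23 (34.8% of all genes) and lay below it for 8 (49.9%). It exceeded AM-38 for 22 (40.1%) and lay below it for 10 (51.6%), while AM-38 exceeded A-172 for 9 (24.6%) and lay below it for 14 (24.2%). THBS1, which activates latent TGF-beta, had 1123 and 1089 FPKM in SNU-466, 38.68 and 40.04 in AM-38 and 8.72 and 7.60 in A-172. TGFBI, a gene induced by TGF-beta, had 112.5 and 108.0 in AM-38 and at most 0.78 in the other lines. HTRA1 had 222.1 and 226.2 in SNU-466 and at most 6.35 elsewhere, BAMBI, a decoy receptor, 81.0 and 80.7 against at most 9.15, and FBN1 76.2 and 71.7 against at most 36.0.

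Both tables held 10 of the 46 genes, whose levels are on the same FPKM scale but were fitted apart, so no test crosses them. SFRP2 and GREM1, above 100 FPKM in 1 line of the 8, had at most 0.33 and 0.13 in the 3 lines, while NOG, at most 1.86 in the 8 lines, had 47.4 and 47.1 in A-172. INHBB reached 18.4 FPKM in SNU-466, against 4.22 in the highest library of the 8 lines. WNT7B, at 51.7 in SNU-1105, was at most 0.67 in the 3 lines, and BMP6 (14.2 in KNS-42, 7.32 in SNU-466) and FZD8 (20.2 in U-138MG, 14.1 in SNU-466) were nearer to each other. FZD1 reached 35.8 in KNS-42 and 7.72 in SNU-466, and SULF1 23.8 in SNU-1105 and 2.86 in SNU-466. TCF7, WNT5B, WNT2B, CHRD, TGFB1, TGFB3, SFRP4 and BMP8B overlap a protein-coding gene on the other strand, and no source used here says whether the counting used strand, so reads of such pairs cannot be told apart.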

How the data were processed

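Poly(A) RNA of 11 glioblastoma lines was sequenced in strand-specific libraries, per the labels' protocols. The authors deposited raw read counts, FPKM and gene length per gene and library in a table of 8 lines and a table of 3 lines. The submitters' processing notes name HISAT2 2.2.1, StringTie 1.3.3, HTSeq 0.6.0, cutadapt 1.9.1, FastQC 0.10.1 and the GRCh38 build, with no role for each tool and no annotation release. All columns matched samples by name. Of 2221 and 5383 gene IDs, 2220 and 5382 had a name, and GENCODE 29 gave the coordinates.

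Library totals were worked back from reads, length and FPKM from genes that reached 20 FPKM and 200 reads, where they varied by at most 0.0258%. The listed genes held 5.81% to 10.2% of the totals of the 8 lines and 21.8% to 37.1% of those of the 3 lines. No pair of libraries agreed within sampling noise, so each line counts 2. Counts were fitted with edgeR 4.0.16 (quasi-likelihood, 1 coefficient per line, filterByExpr by line, these totals as library sizes), each table apart, in R 4.3.3. The fit was also run on simulated counts in which most genes had the same mean in every line. The genes here differ from that, so no result is drawn from it. The any-difference test was called at an adjusted p under 0.05 with line coefficients at least 1 apart on the log2 scale. Adjusted p-values cover all genes tested, and for pairs also the 28 or 3 pairs. Where a line had 0 reads in both libraries, folds are lower bounds against 3 reads over the 2 libraries, which covers counting error only. Alternatives were TMM and RLE scaling, DESeq2 1.42.0, limma 3.58.1 with a prior count of 2, no low-count filter, other fold thresholds, a replicate block and leaving out each library. Values of every library are printed for genes with 1 line above or below each other line and for up to 3 genes per role with the highest line mean, and of the pathway genes outside the rule those among the 6 with the highest line mean in each table are named. Values of 1 gene of the symbol rule and 1 other pathway gene are not reported here, in text or plots, though the counts include them. The genes, lists and promoters were chosen with earlier results of these data known.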

Additional observations from a re-analysis of the deposited data

How the results depend on the processing

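In the 8 lines, leaving out 1 library in turn kept 20 to 20 genes differing, 7 to 9 with 1 line above each other line and 4 to 5 with 1 line below. In the 3 lines it gave 34 to 35 genes differing, 30 to 34 called between SNU-466 and A-172, 32 to 33 between SNU-466 and AM-38 and 17 to 19 between AM-38 and A-172. The count of genes with 1 line above each other line in the 8 lines was 5 at a log2 fold threshold of 2, which is a stricter rule. The count with 1 line below each other line was 8 with both T98G libraries left out, an alternative chosen after seeing the data, where each line has fewer lines to pass. TMM, RLE, DESeq2, limma and no low-count filter left each of these counts within 1.5 times its main value. Counts by direction between 2 of the 8 lines moved further in some pairs, as from 10 to 6 genes higher in LN-229 than in KALS-1 with TMM factors. Against the AM-38 minus A-172 count of 18, no fold threshold gave 27.

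Differences between a gene's highest line and the next reversed for 4 genes, none of them called. The difference of U-87MG to SNU-1105 for WNT7B (0.07) was -0.26 with TMM and -0.04 with RLE factors, and -0.36 to 0.69 on leaving out 1 library. On leaving out 1 library, LN-229 minus KNS-42 for LTBP3 ran from -0.044 to 0.20, and U-138MG minus U-87MG for LTBP1 from -0.10 to 0.26. A-172 minus AM-38 for FSTL3 was -0.11 with RLE factors. The cause was not tested. WNT11 in KNS-42 lost its call with TMM (1.18), RLE (1.28), DESeq2 (1.35) and limma (1.05), and SFRP2 in SNU-1105 with limma (1.02). TMM factors moved the median difference of all genes between 2 lines by up to 1.02 in the 8 lines and 0.28 in the 3 lines, and RLE factors by up to 0.86 and 0.52.

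Libraries share a replicate number between lines, but same-numbered libraries did not deviate together (correlations of -0.07 to 0.07 over 28 pairs of lines and -0.02 to 0.02 over 3). With a replicate block, 20 genes differed in the 8 lines, 8 had 1 line above each other line (WNT11 was lost, 1.17, adjusted p = 0.0895) and 4 had 1 line below, and in the 3 lines 35 differed, with 33, 33 and 18 called in the 3 pairs. With 2 libraries per line, levels of genes with few reads are limited by counting: SFRP4, RSPO4, WNT2B, DKK2, GDF10 and WNT11 rest on 22 to 123 reads in their highest line. So do GREM1 and SFRP2 in the 3 lines, with 69 and 23 reads in SNU-466.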

Other observations

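The 35 promoters of pathway genes in the RefSeq table had a median of 30 CpG dinucleotides in 300 bases and 68.67% GC, against 14 and 58.33% over all 27305. INHBB was highest among them, with 58 CpG and 10 GC boxes, and 0.176% of all promoters had as many CpG, while BMP5 had 1 CpG and TGFBR2 had 8. Among genes with wide ranges among lines, GREM1 had 42 CpG in 300 bases and SFRP2 had 15, near the median of 14 over all promoters.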
